A study of Mus musculus with 16 samples.

Results

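The digestive enzymes of the exocrine pancreas were followed in mouse liver through 10 genes, Pnliprp1, Pnliprp2, Pnlip, Cel, Amy2a5, Cela1, Cela2a, Cela3b, Ctrb1 and Ctrl, of the 19096 genes that the array probes could be assigned to. The genes were selected on their array signals and background marks across the 4 groups, and each had 1 probe among the 41174 probes of the array. These signals are given as a description, with no p-value. Calls of these genes come from a fit over all probes and are no test of genes selected this way. RNA came from non-tumorous liver of 16 male mice of 57 weeks, 1 array per mouse. Every mouse had received 1 intraperitoneal dose of diethylnitrosamine (DEN), a carcinogen that initiates liver tumors, at 90 mg/kg and 5 weeks of age. The 4 groups of 4 mice were wild type (WT, C57BL/6J) or null for Gadd45b (KO, stock B6;129S6-Gadd45b tm1Flv/J), each on plain water (DEN) or, from 7 weeks of age, on water with 0.5 g/l phenobarbital (DEN + PB). The stock name of the KO line carries a second strain although the text of the study gives a C57BL/6J background for it, so genotype and strain background cannot be told apart here.

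Acinar cells of the pancreas make and store digestive enzymes and release them into the gut. Pancreatic lipase (Pnlip) splits dietary triglycerides with the help of colipase (Clps), its relatives Pnliprp1 and Pnliprp2 share its fold but not its full activity, and carboxyl ester lipase (Cel) splits cholesteryl and vitamin esters in the presence of bile salts. Elastases (Cela1, Cela2a, Cela3b) and chymotrypsins (Ctrb1, Ctrl) are serine proteases made as inactive precursors, and amylase splits starch. PB, a barbiturate, activates the nuclear receptor CAR in hepatocytes, which switches on genes of drug metabolism such as Cyp2b10, and it promotes liver tumors in mice initiated with DEN.

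Array signals are given here as log2 of the background-corrected intensity relative to the 75th percentile of the same array, so that 0 is the 75th percentile and each unit is a doubling. These values compare groups for 1 probe and do not rank different genes. The scanner software marks a spot that is well above background, and 58.3% to 67.7% of the spots of an array carried that mark. A probe without the mark is said here to be at background. The labels held for genes with a known answer. Gadd45b was well above background on all 8 WT arrays and on none of the 8 KO arrays, at least 23.6-fold lower in KO under DEN and at least 44.8-fold lower under DEN + PB. Cyp2b10, the standard PB target, was higher after PB by 6.69 ± 0.62 log2 units (SE) in WT and 6.80 ± 0.62 in KO. All 7 hepatocyte markers with a probe, among them Alb and Ttr, were well above background on all 16 arrays.

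The 10 genes fell into 3 classes by detection. Amy2a5, Cel, Ctrb1 and Ctrl were well above background on all 16 arrays. Cela1 (14 arrays), Cela3b (10 arrays) and Pnliprp1 (8 arrays) were well above background on some arrays. Pnliprp2 and Cela2a reached it on 1 array each and Pnlip, the lipase that gives the family its name, on 0. Hence 7 of the 10 genes entered the fit over all probes, which took the probes that carried the mark throughout 1 group or more, that is on each of its 4 arrays. Pnliprp1 and Cela3b entered through their 2 DEN + PB groups, so that their entry already required the DEN + PB arrays to be high.

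**Figure D1:**
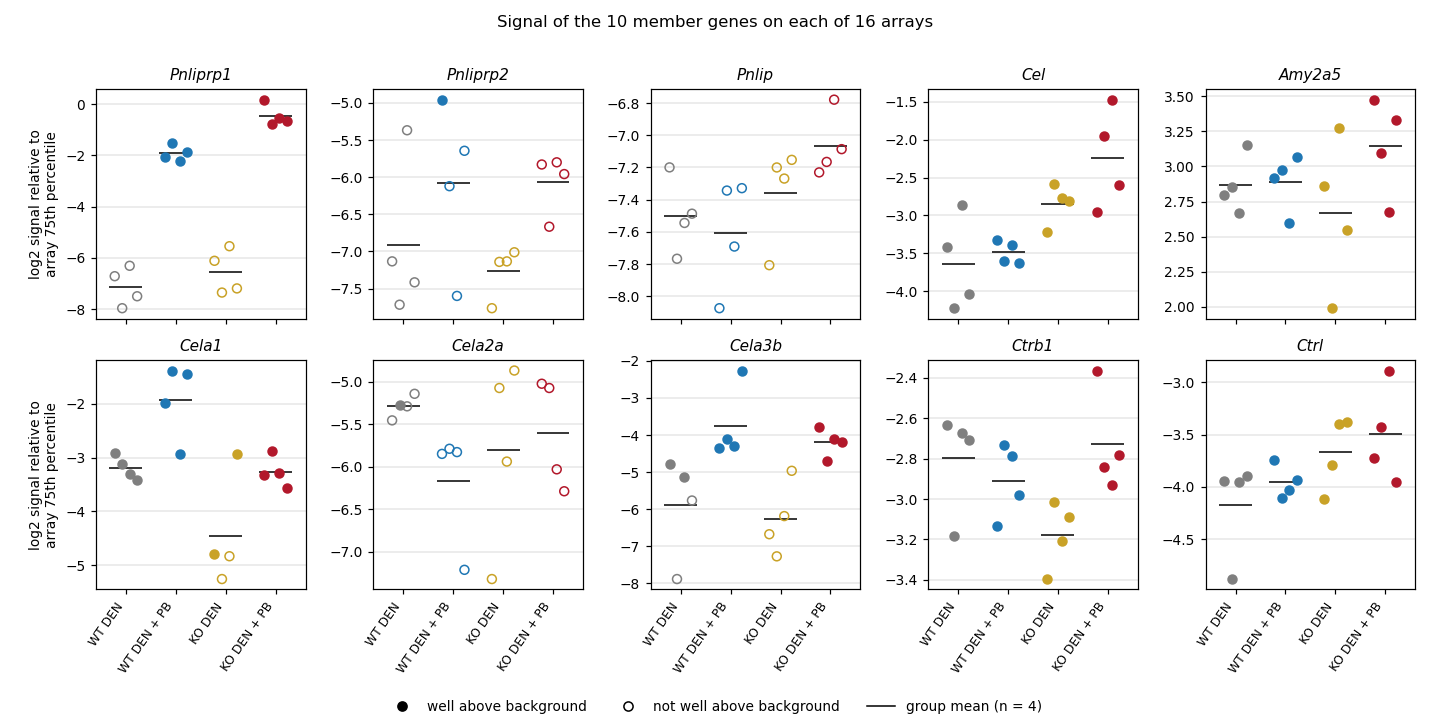
Log2 signal against the 75th percentile of the array (vertical axes, which differ between panels) for each of the 10 genes in the 4 groups (horizontal axis). Each point is 1 mouse, filled where the probe was well above background, and the bar is the mean of 4 mice. Pnliprp1 lay between -7.96 and -5.54 in both DEN groups and between -2.20 and 0.17 in both DEN + PB groups.

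Pnliprp1, pancreatic lipase-related protein 1, showed the widest range of the 10 genes. Under DEN alone its probe stayed at background on all 8 arrays, at -6.71, -7.96, -6.31 and -7.49 in WT and at -6.11, -7.35, -5.54 and -7.19 in KO. With PB it was well above background on every array, at -2.07, -1.50, -2.20 and -1.85 in WT and at 0.17, -0.76, -0.55 and -0.64 in KO. The DEN + PB arrays lay apart from the DEN arrays of the same genotype in both genotypes, and the 4 KO arrays with PB all lay above the 4 WT arrays with PB. The measured means were -1.90 ± 0.31 against -7.12 ± 0.75 in WT and -0.44 ± 0.42 against -6.55 ± 0.87 in KO (SD, n = 4). Since the DEN groups were at background, the size of the rise is known only as an approximate bound, at least 11.2-fold in WT and at least 27.7-fold in KO. The bound takes the lowest signal with the mark on each array as its limit. The fitted log2 changes, which take the background signals at face value, were 5.21 ± 0.40 in WT and 6.10 ± 0.40 in KO (SE).

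A probe was called where its adjusted p was under 0.05 in the fit over all probes and its change was at least 1.5-fold. For PB in WT, 1 of the 7 fitted genes was called, Pnliprp1, where 0.667% of all 24454 fitted probes were. For PB in KO, 1 of 7 was called, again Pnliprp1, where 1.72% of all probes were. The groups did not overlap for 2 of 7 genes in WT (background 4.58%) and for 3 of 7 in KO (background 7.43%). These signals chose the genes, and nothing is read from the counts. The rise of Pnliprp1 was present on every slide that held both groups. Within the 3 such slides it was 4.24 to 5.88 log2 units in WT and 5.35 to 6.71 in KO. With a background correction that adds an offset to all signals (normexp), its size was 0.72 in WT, where it was no longer called, and 2.02 in KO.

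The lipase genes beside Pnliprp1 were at or near background. By gene order, Pnliprp1 stands on chromosome 19 between Pnlip and Pnliprp2, with Ccdc172 on the far side of Pnlip and 1700019N19Rik and Hspa12a beyond Pnliprp2. Pnlip stayed between -8.07 and -6.78 on all 16 arrays and was not well above background on any. Pnliprp2 was well above background only on WT DEN + PB replicate 1, at -4.96. Its other 15 arrays lay between -7.76 and -5.37. Its mean signal was nevertheless higher with PB in both genotypes, at -6.08 against -6.91 in WT, with overlap, and at -6.06 against -7.26 in KO, without overlap. The difference was above 0 on each slide that held both groups, at 0.41 to 1.92 in WT and 1.10 to 1.27 in KO. These signals were not well above background on any array but 1, so they give no size and leave unmeasured whether either lipase gene changed with Pnliprp1. Both probes of Ccdc172 were at background on all arrays. The 1700019N19Rik probe that was well above background on all 16 arrays had a fitted PB change of 0.23 in WT and 0.48 in KO.

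**Figure D2:**
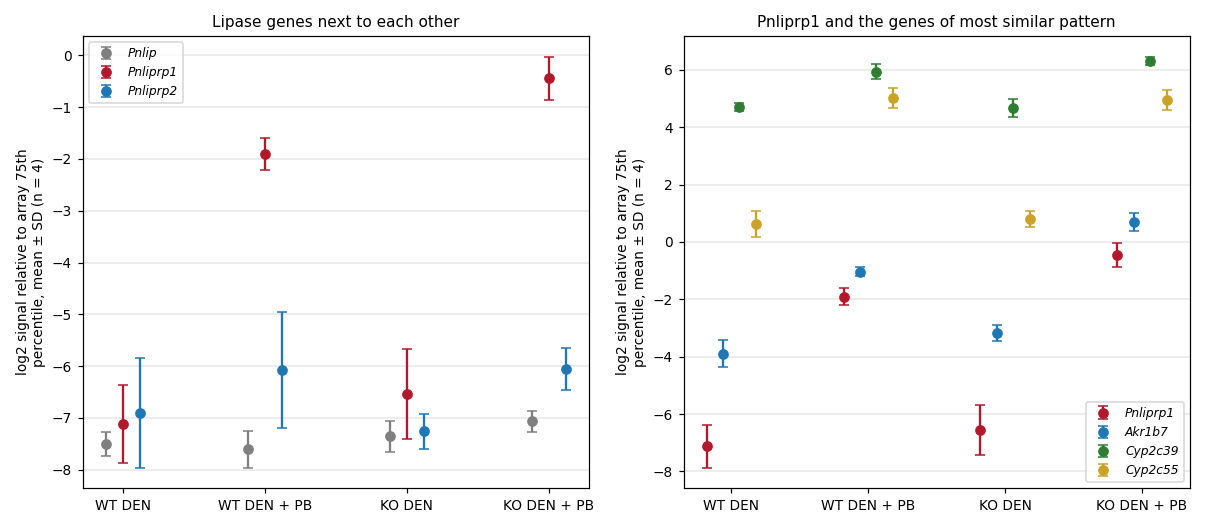
Mean ± SD (n = 4 mice) of the log2 signal against the 75th percentile of the array (vertical axes) in the 4 groups (horizontal axes), for Pnliprp1 with both lipase genes beside it on the chromosome (left) and with the 3 genes whose values were most similar over the 16 arrays (right). Pnlip had group means of -7.61 to -7.07, while Pnliprp1 rose to -1.90 in WT and -0.44 in KO with PB. Heights of different genes are not comparable.

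The 250 bases before the start of 4 of the genes are shown to set the lipase that rose after PB beside its neighbour at background and beside both elastases with higher means after PB. All 10 genes matched a window of the RefSeq promoter table (build GRCm38.p6; the array itself was designed on another build). Sequences run 5′ to 3′ on the strand of the gene. Capitals mark AGGTCA (a half-site of nuclear receptors), CACCTG (an E-box, the site class of the acinar factor PTF1), GTTAAT (a half-site of HNF1) and TATAAA, searched on both strands.
Pnliprp1 (chr19:58728637-58728886, + strand): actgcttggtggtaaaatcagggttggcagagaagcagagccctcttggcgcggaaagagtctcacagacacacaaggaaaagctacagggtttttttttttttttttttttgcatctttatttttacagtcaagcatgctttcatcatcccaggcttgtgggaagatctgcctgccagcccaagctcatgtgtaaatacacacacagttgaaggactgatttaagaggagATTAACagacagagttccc
Pnlip (chr19:58670115-58670364, + strand): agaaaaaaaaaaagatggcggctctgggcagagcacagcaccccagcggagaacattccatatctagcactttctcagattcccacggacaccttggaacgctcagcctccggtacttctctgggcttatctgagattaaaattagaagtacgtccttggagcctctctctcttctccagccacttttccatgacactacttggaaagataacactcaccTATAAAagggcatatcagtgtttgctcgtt
Cela1 (chr15:100687921-100688170, - strand): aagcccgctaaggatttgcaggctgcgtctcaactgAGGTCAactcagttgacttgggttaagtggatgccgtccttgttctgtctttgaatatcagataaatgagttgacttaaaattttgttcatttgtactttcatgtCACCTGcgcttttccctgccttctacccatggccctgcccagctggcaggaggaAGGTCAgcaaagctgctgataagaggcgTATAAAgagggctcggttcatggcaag
Cela3b (chr4:137430521-137430770, - strand): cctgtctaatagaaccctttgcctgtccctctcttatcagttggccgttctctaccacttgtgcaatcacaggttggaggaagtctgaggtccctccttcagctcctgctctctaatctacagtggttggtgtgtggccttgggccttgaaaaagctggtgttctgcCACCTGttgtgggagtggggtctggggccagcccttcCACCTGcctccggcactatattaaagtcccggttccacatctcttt

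The marked word of Pnliprp1 is GTTAAT read on the opposite strand, 19 to 14 bases before the start. GTTAAT was found in 2 of the 10 windows, those of Pnliprp1 and Ctrb1, and in 6.43% of 32851 windows of all genes. Pnlip and Cela1 hold TATAAA 30 to 25 and 27 to 22 bases before the start, as does Amy2a5, against 12.4% of all windows. AGGTCA was in the windows of Cela1, Cel and Amy2a5 (14.0% of all windows). CACCTG was in 6 of the 10 (17.2% of all windows), 4 times in that of Cel. AGTTCA (11.8% of all windows) and a direct repeat of AGNTCA with 4 bases between (DR4, 0.103%), which can contain AGGTCA or AGTTCA, were in none of the 10. A match is a run of letters and not a measured binding site.

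Both elastases that entered the fit had higher means after PB in both genotypes. With PB their spread between mice (SD 1.00 for Cela3b and 0.72 for Cela1) was wider than that of Pnliprp1 (0.31) in WT and narrower in KO (0.38 and 0.28 against 0.42). Cela3b, an elastase of the pancreas, lay at -4.80, -7.88, -5.13 and -5.77 in WT DEN, where replicates 2 and 4 were not well above background, and at -4.34, -4.11, -4.30 and -2.26 in WT DEN + PB. In KO it lay at -6.68, -7.27, -6.19 and -4.96 under DEN, none well above background, and at -3.78, -4.69, -4.11 and -4.19 with PB. The DEN and DEN + PB arrays did not overlap in either genotype, which its entry through the DEN + PB groups favours. The fitted change was 2.14 ± 0.62 in WT and 2.08 ± 0.62 in KO, where the KO DEN group was at background and the difference was at least 2.06-fold. Neither change was past the call rule. The WT change rested in part on single arrays. It was 1.48 without WT DEN replicate 2, the lowest array and at background, and 1.65 without WT DEN + PB replicate 4, which stood apart at the high end.

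Cela1, an elastase that is also expressed outside the pancreas, lay at -2.91, -3.12, -3.31 and -3.41 in WT DEN and at -1.98, -1.38, -2.93 and -1.44 in WT DEN + PB. In KO it lay at -4.80, -5.26, -4.84 and -2.94 under DEN, with replicates 2 and 3 not well above background, and at -3.32, -2.88, -3.29 and -3.57 with PB. Cela1 thus had its highest mean in WT DEN + PB (-1.93 ± 0.72), close means in WT DEN (-3.19 ± 0.22) and KO DEN + PB (-3.27 ± 0.28), and its lowest in KO DEN (-4.46 ± 1.03; SD, n = 4). The WT DEN and KO DEN + PB arrays overlapped over nearly their whole range. The PB change was 1.25 ± 0.41 in WT and 1.19 ± 0.41 in KO, and the groups overlapped through 1 array in each genotype, WT DEN + PB replicate 3 and KO DEN replicate 4. Without KO DEN replicate 4, the PB change of Cela1 in KO was 1.70 and was called.

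With PB, Pnliprp1 and Cel stood higher in KO than in WT and Cela1 stood lower. Pnliprp1 was higher in KO than in WT by 1.46 ± 0.40 log2 units, or 2.75-fold, with all 4 KO arrays above all 4 WT arrays. Cel, which was well above background on every array, was higher in KO by 1.24 ± 0.31, or 2.36-fold. Its arrays lay at -3.33, -3.60, -3.39 and -3.63 in WT DEN + PB and at -2.95, -1.95, -1.47 and -2.60 in KO DEN + PB, without overlap. Cela1 ran the other way, with a KO minus WT difference of -1.33 ± 0.41 and 1 of 16 pairs of arrays in the opposite order, and was not past the call rule. Pnliprp1 and Cel were called, 2 of 7, where 6.74% of all probes were, and the groups did not overlap for 2 of 7 against 16.1% of all probes. As for PB, these signals chose the genes, and nothing is read from the counts.

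The sizes of these genotype differences moved little when 1 array was left out, at 1.25 to 1.60 for Pnliprp1 and 0.98 to 1.48 for Cel, but the calls did not hold throughout. Pnliprp1 was no longer called when any 1 array of the KO or WT DEN + PB groups was left out except WT DEN + PB replicate 2. Cel was no longer called without KO DEN + PB replicate 2 or 3 or without WT DEN + PB replicate 2 or 4. With the slide as a block Cel was called and Pnliprp1 was not, and without moderation or with no filter on dim probes neither was. Within the 4 slides the difference was 0.86 to 2.02 for Pnliprp1 and 0.68 to 1.92 for Cel, higher in KO on each. The sizes depended more on the processing. Over 10 alternatives the difference was 0.79 to 1.46 for Pnliprp1 and 0.25 to 1.24 for Cel. The array with the highest Cel signal, KO DEN + PB replicate 3, also had the lowest 75th percentile of all arrays, 137 against up to 294. In the deposited table without scaling between arrays the difference was 1.12 for Pnliprp1 and 0.90 for Cel, and neither was called, while Cela1 was called (-1.67). The part of array brightness in the Cel difference was not tested.

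Under DEN alone the genotypes overlapped in all 7 fitted genes, where 11.9% of all probes did not overlap. The KO minus WT difference was -1.27 ± 0.41 for Cela1 and 0.79 ± 0.31 for Cel, neither past the call rule. Cel lay at -3.42, -4.22, -2.86 and -4.04 in WT and -3.21, -2.59, -2.76 and -2.81 in KO. The Cel groups overlapped through WT DEN replicate 3 alone. Pnliprp1 was at background in both genotypes and has no measured difference. Without KO DEN replicate 4, the array on which Cela1 was highest in its group, Cela1 was called (3.07% of all probes were called on all arrays), with a difference of -1.78. The order of the groups for Cel was therefore KO DEN + PB (-2.25 ± 0.66), KO DEN (-2.84 ± 0.26), WT DEN + PB (-3.49 ± 0.15) and WT DEN (-3.64 ± 0.62; SD, n = 4), and neighbours in this order overlapped except KO DEN and WT DEN + PB.

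**Figure D3:**
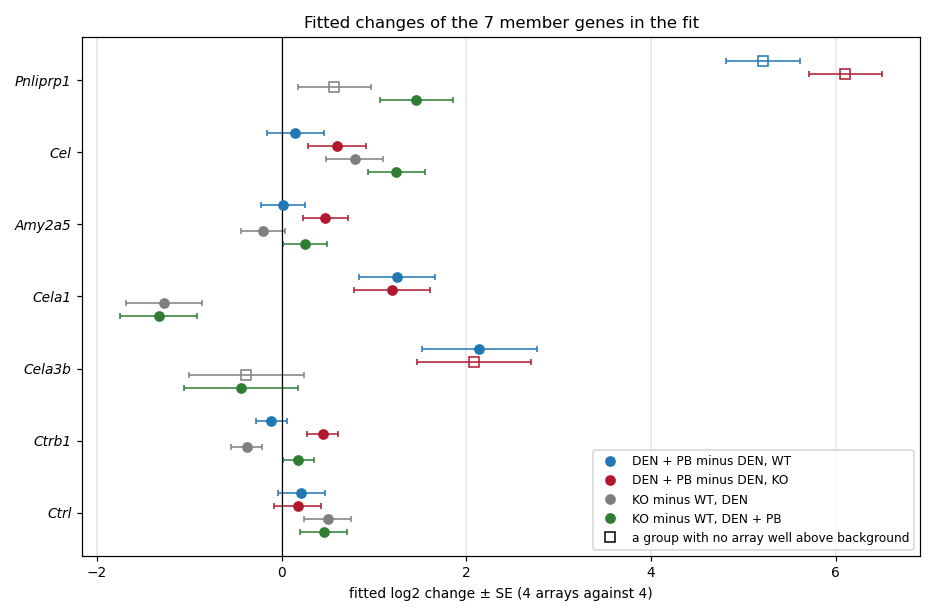
Fitted log2 change (horizontal axis) of the 7 genes in the fit (vertical axis) in the 4 comparisons of 4 mice against 4, with bars of 1 SE. Open squares mark changes against a group with no array well above background, whose size is not measured. The PB changes of Pnliprp1 stand at 5.21 and 6.10, and its KO minus WT difference with PB at 1.46.

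The comparisons share arrays, since each group enters 2 of them, so that a low or high array moves both. The difference of the PB response between the genotypes, WT minus KO, was -0.89 ± 0.56 for Pnliprp1, -0.45 ± 0.44 for Cel, 0.06 ± 0.58 for Cela1 and 0.06 ± 0.88 for Cela3b. None of these was past the call rule, which 0.00818% of all probes passed. The bound on the Pnliprp1 rise was higher in KO than in WT, but both start from signals at background.

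The chymotrypsins and amylase did not pass the call rule in any comparison. Ctrb1, chymotrypsinogen B, spanned -3.40 to -2.36 over all 16 arrays, with a PB change of -0.11 ± 0.17 in WT and 0.45 ± 0.17 in KO. The KO groups of Ctrb1 did not overlap, at -3.40 to -3.01 under DEN and -2.93 to -2.36 with PB. Ctrl, a chymotrypsin-like protease, spanned -4.88 to -2.89, changed by 0.22 ± 0.26 in WT and 0.17 ± 0.26 in KO, and had KO minus WT differences of 0.50 under DEN and 0.46 with PB, with overlap each time. Amy2a5 lay between 2.60 and 3.15 in WT and between 1.99 and 3.48 in KO. Its PB change was 0.02 ± 0.24 in WT and 0.48 ± 0.24 in KO. The amylase genes are near-identical copies and Amy1 is the amylase of liver, so the Amy2a5 probe may read either, and its level is uncertain as to the gene. Amy1 itself, through its brightest probe, had group means of 6.76 to 7.17.

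Cela2a, the third elastase, was well above background only on WT DEN replicate 2, at -5.27. Its 4 WT DEN arrays (-5.45 to -5.14) lay above the 4 WT DEN + PB arrays (-7.21 to -5.79), opposite in order to Cela1 and Cela3b. With 1 array above background this has no more than a lower bound of 1.14-fold. In KO its arrays lay between -7.32 and -4.87 and the groups overlapped.

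The 3 genes whose values over the 16 arrays were most similar to Pnliprp1, among 13280 named genes in the fit, were Akr1b7, an aldo-keto reductase (r = 0.969), and the cytochromes P450 Cyp2c39 (r = 0.965) and Cyp2c55 (r = 0.961). Cyp2b10 reached r = 0.935. These correlations mostly restate the shared group means, and after the group means were removed they were 0.50, 0.44, 0.29 and 0.19. Akr1b7 was also higher in KO than in WT with PB, at 0.70 ± 0.32 against -1.04 ± 0.15 (SD, n = 4). Cyp2c55 was not, at 4.94 ± 0.34 against 5.02 ± 0.35.

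The 3 most similar genes of each other member were different ones. Cela1 was most similar to Wee1 (r = 0.856), a cell cycle kinase, to the keratin Krt79 (0.827) and to the zinc transporter Slc39a4 (0.805). Cela3b was most similar to Lgals1 (0.916), a galectin, to Limk1 (0.897) and to Arhgap22 (0.897), and with group means removed these stood at 0.94, 0.82 and 0.80. The genes were picked by their r over these same arrays, which hold WT DEN + PB replicate 4, so the values are a description of the selection. Ctrb1 was nearest to Hopx (0.824), Ern2 (0.818) and Slc14a2 (0.770), and Ctrl to Mep1a (0.926), Galr3 (0.922) and Vstm2l (0.921). Cel was nearest to Podnl1 (0.913), Tesmin (0.901) and Vsig2 (0.896), and Amy2a5 to Ndufa10 (0.887), Sepsecs (0.884) and Zfp874a (0.872). All r are over 16 arrays that share their scaling.

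The rest of the acinar program was mostly undetected. Of 32 other acinar genes listed, 26 had a probe, 4 of these were well above background on all 16 arrays (Amy1, Klk1, Spink1 and Sycn) and 14 on none, among them Cpa1, Cpb1, Prss2, Clps, Pla2g1b, Reg1 and Gp2. Colipase, the partner of pancreatic lipase, was thus not detected in any group. Other genes of the list were well above background on some arrays, among them Prss3 on 15, Try5 on 12 and Rnase1 on 8. Of the 7 genes that entered the fit, limma called 0 in each of the 4 comparisons and in their difference. At an unadjusted p under 0.05 there was 1, Amy1 in KO against WT with PB, and without moderation 0. The median change of these 7 was 0.12 for PB in WT and 0.20 for PB in KO, against -0.02 and 0.00 over all probes. The dimmer probe of Prss3, a trypsin, was called for PB in KO (1.06, limma adjusted p = 0.0419), but its brighter probe was not (0.23, adjusted p = 0.895).

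**Figure D4:**
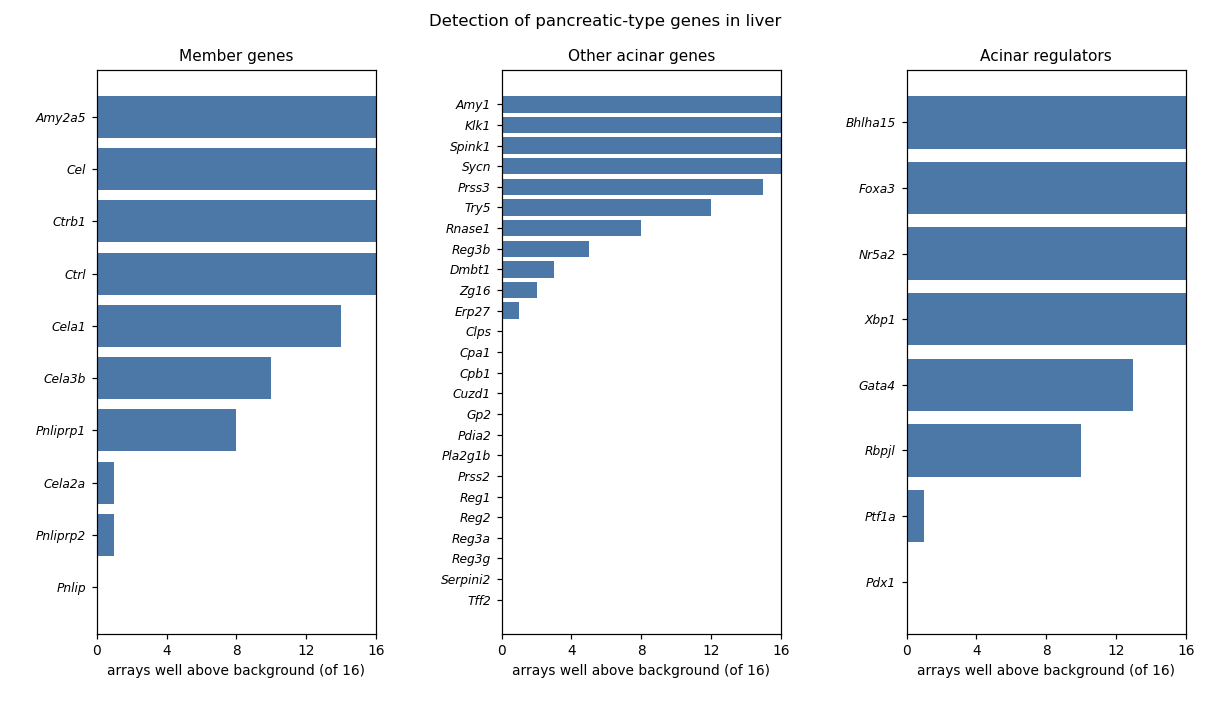
Number of the 16 arrays on which the brightest probe of each gene was well above background (horizontal axes) for the 10 genes described, 25 other acinar genes and 8 regulators of the acinar program (vertical axes). Bars at 0 are genes at background on every array, 14 of the 25 in the middle panel.

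Among 8 acinar regulators with a probe, Bhlha15, Foxa3, Nr5a2 and Xbp1, which the liver also expresses, were well above background on all 16 arrays. Ptf1a, the defining factor of acinar cells, reached it on 1 array, and its partner Rbpjl on 10. Limma called 0 of the 6 that entered the fit in any comparison, and without moderation 0. At an unadjusted p under 0.05 there were 0 for PB in WT, 1 for PB in KO (Bhlha15, 1.98 ± 0.50, adjusted p = 0.0559), 2 for KO against WT under DEN (Bhlha15 and Xbp1) and 2 with PB (Foxa3 and Nr5a2). The dimmer probe of Bhlha15 did not show these changes. It stood at 0.04 for PB in KO (limma adjusted p = 0.986) and at 0.006 for KO against WT under DEN (adjusted p = 0.994), where the brighter probe stood at -1.40. Rbpjl was highest on WT DEN + PB replicate 1, at -2.31, the only array on which Pnliprp2 was well above background (-4.96). Cela3b was highest on WT DEN + PB replicate 4, at -2.26. On that array Rbpjl stood at -4.90, and Spink1, another acinar gene, stood at -2.24, the highest of its group. The part of acinar cells in these values was not tested.

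The lipases and lipoprotein factors of liver and blood were listed beside the pancreatic type. Of 21 with a probe, 18 entered the fit. For PB in WT limma called 0, with 4 at an unadjusted p under 0.05 and 0 without moderation. For PB in KO it called 1, Lpl, lipoprotein lipase, higher by 1.29 ± 0.24 (adjusted p = 0.00886). Lpl was also lower in KO than in WT under DEN by a log2 change of -1.16 ± 0.24 (adjusted p = 0.0170), with arrays at 0.03 to 0.44 in KO and 0.71 to 1.81 in WT. With PB, Apoa5 (0.75 ± 0.22, adjusted p = 0.0458) and Pla1a (0.60 ± 0.17, adjusted p = 0.0415) were higher in KO, and Pnpla3, a lipid droplet protein, was lower (-2.16 ± 0.51, adjusted p = 0.0176), and without moderation 1 of these 3 was called. The median change of the 18 was -0.18 for PB in WT, 0.19 for PB in KO, -0.12 for KO against WT under DEN and 0.23 with PB.

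Of 7 protease inhibitors with a probe, 5 entered the fit. Serpinb1a, an intracellular inhibitor of neutrophil serine proteases, was the 1 called. It was higher after PB in KO by 3.86 ± 0.38 (limma adjusted p = 2.96e-05), from -0.42 to 1.59 under DEN to 4.02 to 4.81 with PB. In KO under DEN it was lower than in WT (-2.10 ± 0.38, adjusted p = 0.00908), where its arrays lay at 2.04 to 3.25. Its change after PB in WT was 0.92 ± 0.38 (adjusted p = 0.578), and the difference of the responses, WT minus KO, was -2.94 ± 0.54 (adjusted p = 0.162). Spink1, a trypsin inhibitor of acinar cells, was well above background on all arrays and not called in any comparison.

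Markers of other cells were set beside these results. Summed signals compare groups over the same probes, are weighted to the brightest of them and do not measure a marker set evenly. The signals of the 12 acinar markers with a probe summed to 0.18 to 0.39 times the array's 75th percentile in WT DEN, 0.20 to 0.39 in WT DEN + PB, 0.18 to 0.35 in KO DEN and 0.22 to 0.39 in KO DEN + PB, and of these 12 genes 6 (Cpa1, Cpb1, Prss2, Clps, Cuzd1 and Gp2) were at background on every array. Sycn, a zymogen granule protein, was well above background on all 16 arrays, Rbpjl on 10, Rnase1 on 8, Zg16 on 2 and Ptf1a on 1. On the DEN + PB arrays, where Pnliprp1 was high, Sycn lay at -3.42 to -3.06 in WT and -3.50 to -2.33 in KO, Rbpjl was well above background on 4 WT arrays and 1 KO array and Rnase1 on 1 WT array, and Zg16, Ptf1a and the 6 genes named first on none. The part of acinar cells in the member values was not tested. Islet markers summed to 0.07 to 0.48, the highest on KO DEN replicate 4, where Ppy alone reached -1.45. Single gastric genes were likewise high on single arrays, Gkn1 on KO DEN + PB replicate 1 (-0.86) and Pgc on KO DEN + PB replicate 2 (-2.73), each at background on the other 15. On those 2 arrays Cel stood at -2.95 and -1.95, and Pnliprp1 at 0.17 and -0.76, its highest and lowest values in KO DEN + PB. Ppy was also well above background on KO DEN + PB replicate 1, at -4.16. On KO DEN replicate 4 both Cela1 (-2.94) and Cela3b (-4.96) were the highest of their group. Of the other islet markers Nkx6-1 was well above background on 14 arrays, Ins1, Ins2 and Sst on 3 each, and Gcg and Pdx1 on 0. Among stomach and intestine markers, Fabp2 and Vil1 were so on 16 arrays. Lipf was so on 8, Muc2 on 3, and Lct and Cdx2 on 0. The part of these signals in the member values was not tested.

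Biliary and leukocyte markers moved with the groups. Krt7 and Krt19, keratins of bile duct cells, were called higher after PB in WT (1.16 and 1.27), and with PB Krt7, Krt19 and Epcam were lower in KO than in WT (-1.06, -0.93 and -1.20). Of 7 leukocyte markers with a probe, 5 were called lower in KO than in WT with PB, and their summed signal was 3.01 to 4.82 in KO DEN + PB against 7.78 to 8.84 in WT DEN + PB. Cela1 was lower in the same comparison and Pnliprp1 and Cel higher. Of the 7 hepatocyte markers, 6 were higher in KO than in WT with PB, with a median of 0.30 against 0.05 over all probes. Only Tat was called (0.67, limma adjusted p = 0.0418), where 6.74% of all probes were. Their summed signal was 1385 to 1767 in KO DEN + PB against 1123 to 1367 in WT DEN + PB. After PB in WT all 7 were lower (median -0.27) and 0 were called. The part of these cells in the results was not tested, and in bulk tissue fewer cells of a type and less RNA per cell cannot be told apart.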

How the data were processed

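The members and the gene lists were chosen with earlier results of these data known. Liver RNA of 16 mice was hybridised to 1-colour Agilent whole mouse genome arrays, and read with Feature Extraction 12.0.3.1, per the headers of the deposited files (version 12 in the submitters' processing notes). Their processed signal is a background-corrected intensity that the authors did not scale between arrays. The deposited median spot and background intensities, the marks for spots well above background and outliers, and the authors' series table of intensities, which equalled the mean processed signal to within 5e-04 percent, were also used. The authors' own comparisons were not used. The value of 1 listed acinar gene is not reported here.

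Spots with an outlier mark were left out (71 to 122 of 43379 per array), spots of a probe were averaged, and log2 intensity minus the array's 75th percentile was taken. Of 41174 probes, 28223 were named through RefSeq accessions (GRCm38.p6, used for names, gene order and promoters). A gene was read through its brightest probe. The 24454 probes that were well above background throughout 1 group or more (on each of its 4 arrays) entered limma 3.58.1 (lmFit, eBayes; R 4.3.3) with 4 group means over 16 arrays and Benjamini-Hochberg adjustment, and p-values were printed only for genes that are not members. A bound sets the brighter group's mean against the higher, per array, of the lowest signal well above background and the probe's own signal. Some probes without the mark were brighter than that lowest signal, such as Cela1 on KO DEN replicate 3 (intensity 8.30 against 6.56). Bounds are therefore approximate. The genes named are the members, Gadd45b, Cyp2b10, called genes of the lists (at most 5 a list and comparison) and, for each member well above background on at least 8 arrays, the 3 with the highest Pearson r; further names were added after their values were seen. The fit was tested on simulated data. Alternatives were quantile normalization, normexp (offset 50, with the median signal in place of the planned mean signal), other filters, the series table, slide or replicate number as a block, the arrays compared alone, no moderation, all probes of a gene and each array left out. The arrays lay on 4 slides. Their number, 4 a group, limits the precision.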

Additional observations from a re-analysis of the deposited data

Results flagged for a closer look

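Of the 40 sets of 4 arrays (10 genes in 4 groups), 4 held an array far from the other 3 by Dixon's ratio of the gap to the range (above its critical value), and chance alone gives about 1 in 20 sets. Cela3b on WT DEN + PB replicate 4 was high, at -2.26 against -4.11 for the nearest array (ratio 0.891). Cela2a on the same array was low, at -7.21 against -5.85 (ratio 0.958), but its probe was at background there. WT DEN replicate 2 was low for both chymotrypsins, at -3.18 for Ctrb1 against -2.71 for the nearest array (ratio 0.870) and at -4.88 for Ctrl against -3.95 (ratio 0.943).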

How the results depend on the processing

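The members called under other processing were counted for each comparison. For PB in WT the count of 1 became 0 under normexp. For KO against WT with PB the count of 2 became 0 under normexp, with no filter on dim probes and without moderation. It became 1 under normexp without outlying backgrounds (Pnliprp1), in the series table without scaling (Cela1) and with the slide as a block (Cel). The series table shifted the median of all probes by -0.295 for PB in KO and -0.286 for KO against WT with PB. Under quantile normalization and with outlier spots kept the count stayed at 2, and with only the arrays compared it was 3. Leaving out 1 array gave 1 to 1 for PB in WT, 1 to 2 for PB in KO, 0 to 1 for KO against WT under DEN and 0 to 3 with PB. For PB in KO the second call was Cela3b without WT DEN replicate 2 and Cela1 without KO DEN replicate 4. The cause of these moves was not tested.

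With all probes of a gene the other acinar genes called for PB in KO went from 0 to 1 (Prss3), and with no filter from 0 to 1 for KO against WT with PB. Replicate numbers did not pair the arrays: the deviations of arrays with the same number correlated with a median r of 0.0143 (-0.213 to 0.356), and 3 of 16 arrays correlated best with their own number. With the replicate number as a block the members called remained 1, 1, 0 and 2 in the 4 comparisons. No direction of a called change of a member was reversed by any of the alternatives run. Changes of the same genes that were not called did change sign. Under DEN alone the KO minus WT difference ran from -0.21 to 0.85 for Cel and from -0.51 to 0.63 for Pnliprp1 over the processing alternatives. The PB change of Cel in WT ran from -0.09 to 0.25. For the dim probes the distance to background limits every size: under normexp the PB change of Cela3b was 0.11 in WT and 0.39 in KO, and that of Cela1 0.26 and 0.39.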
